A study of Carassius gibelio with 26 samples.

Results

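The genes described here were low in the testes of triploid gibel carp males of groups 2 and 3 and high in those of diploid males and of triploid group 1. For each nuclear gene the counts were divided by the library total and scaled to CPM, the usual measure of a gene's share of its library. The lowest CPM of the 15 libraries of diploid and group 1 males was then set against the highest CPM of the 11 libraries of groups 2 and 3, with 0.5 CPM added to both, and the 100 genes with the highest ratio of 62131 in the table were taken. The contrast between these 2 sides therefore chose the members, and their values on it are a description with no test.

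Gibel carp (Carassius gibelio) is a cyprinid fish with sexual diploids and with triploid females that reproduce by gynogenesis: sperm activates the egg and its genes are not passed on. The offspring of such a female carry her genome, and some of them turn into males, more often in warm water. A fish testis holds germ cells at successive steps from spermatogonia to sperm, together with supporting Sertoli cells and hormone-producing Leydig cells. Levels in whole testis therefore depend on which cells are present as well as on what each cell transcribes, and fewer cells of a type and less RNA per cell cannot be told apart in these libraries.

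RNA from the testes of 26 males aged 2 years was sequenced, 1 library per male. Sexual crosses gave the diploid males (2n, n = 10), which were labelled as sampled at 22 °C. The 16 triploid males came from eggs of gynogenetic females activated by sperm of the same or another species (gibel carp, Cyprinus carpio or Abramis brama; which of them for which male is not given in the labels). Group 1 (n = 5) was sampled at 28 to 31 °C. Its males came from the kind of mother whose offspring reversed sex only at high temperature, and the number of mothers is not given. Groups 2 (n = 5, 28 to 31 °C) and 3 (n = 6, 22 °C) came from females whose offspring also reversed sex in large part at 22 °C; whether both groups share a mother is not given. Library names end in 31 for every male of group 2 and for the first 3 replicates of group 1, and in 28 for group 1 replicates 4 and 5. The names hold a second number whose meaning is not given. It is 14 in 5 diploid males, 108 in 4 and 106 in 1; group 1 males have 4, 5 or 6, and the males of groups 2 and 3 have 11, or 12 in the first 2 of group 3. Males of a group may share a mother, so p-values measure the spread between possibly related males. The kind of mother and the group cannot be told apart between group 1 and groups 2 and 3, nor can ploidy, mode of breeding and temperature between 2n and group 1.

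Library totals ran from 15375923 to 29503544 counts. The TMM factors, which correct library totals for composition, were 1.516 and 1.447 in group 1 replicates 1 and 2, 1.038 to 1.067 in the other 3 males of group 1, 0.9497 to 1.199 in 2n, and 0.7764 to 0.9745 in groups 2 and 3. Group 1 replicates 1 and 2 thus stood apart from replicates 3 to 5. The choice of members used no such correction. Of all nuclear genes tested, 1817 (4.29%) had all 11 libraries below all 15 on plain CPM, and 687 (1.62%) on TMM-scaled CPM. All 100 members kept that pattern on TMM-scaled CPM. They were chosen by its extremes in these same libraries, so nothing is read from that count. The files do not pair the gene IDs with names, and 0 of the 62131 IDs matched the gibel carp gene table of RefSeq (assembly carGib1.2-hapl.c). Members are therefore given by their place in the goldfish annotation ASM336829v1 (Carassius auratus) on which the reads were counted, and neither lists of testis cell markers nor gene functions could be looked up.

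The members ranged from genes nearly silent in groups 2 and 3 to genes that remained well expressed there. Mean levels over the 15 males of 2n and group 1 ran from 1.12 to 119 CPM, with a median of 6.51. Over the 11 males of groups 2 and 3 they ran from 0 to 25.8 CPM, with a median of 0.758. The mean of the 11 males was under 0.1 CPM for 8 members, from 0.1 to 1 CPM for 53 and 1 CPM or more for 39. The fold between the means of the 2 sides had a median of 7.08 over the 99 members with any count in groups 2 and 3. It was 20 or more for 25 members (1 of them with 0 counts in all 11 males), 10 to 20 for 13, 5 to 10 for 31 and under 5 for 31.

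**Figure D1:**
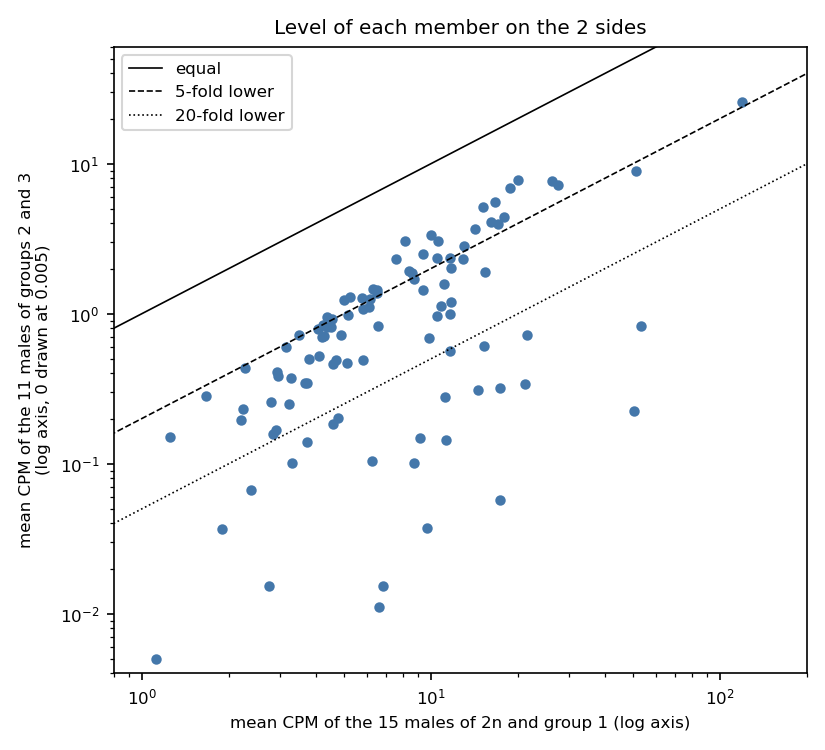
Mean CPM of each of the 100 members over the 15 males of 2n and group 1 (horizontal log axis) and over the 11 males of groups 2 and 3 (vertical log axis). The lines mark equal levels and levels 5-fold and 20-fold lower; 31 members lie between the equal and the 5-fold line and 25 below the 20-fold line.

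Fitted with edgeR's quasi-likelihood model over all 26 libraries, the median log2 fold change of the members was -2.44 for group 2 and -2.52 for group 3 against 2n. Against group 1 it was -2.23 for group 2 and -2.3 for group 3. The first pair of comparisons shares the 2n males and the second shares the group 1 males. The medians over all genes tested were -0.11, -0.1, -0.1 and -0.09 in the same order. All 100 members passed the filter on low counts, and all 100 were lower in each of these 4 comparisons (edgeR adjusted p under 0.05), as were 10.1% of all genes tested. As the choice of members used this contrast, nothing is read from that count.

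Near the end of the list the pattern was shallow. Rank 99 (chromosome 25, 8051010 to 8057516) had a ratio of 1.506, with 11.2 CPM in its lowest male of 2n and group 1 and 7.25 CPM in its highest male of groups 2 and 3. Rank 100 (chromosome 32, 17380419 to 17408272) also had 1.506, from 0.978 and 0.482 CPM. The first gene outside the list (chromosome 43, 13148470 to 13377440) had 1.505, from 1.15 and 0.598 CPM, and the one after it (chromosome 21, 22349277 to 22350530) had 1.504, from 6.02 and 3.84 CPM. The members are thus the upper end of a continuous series of genes.

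**Figure D2:**
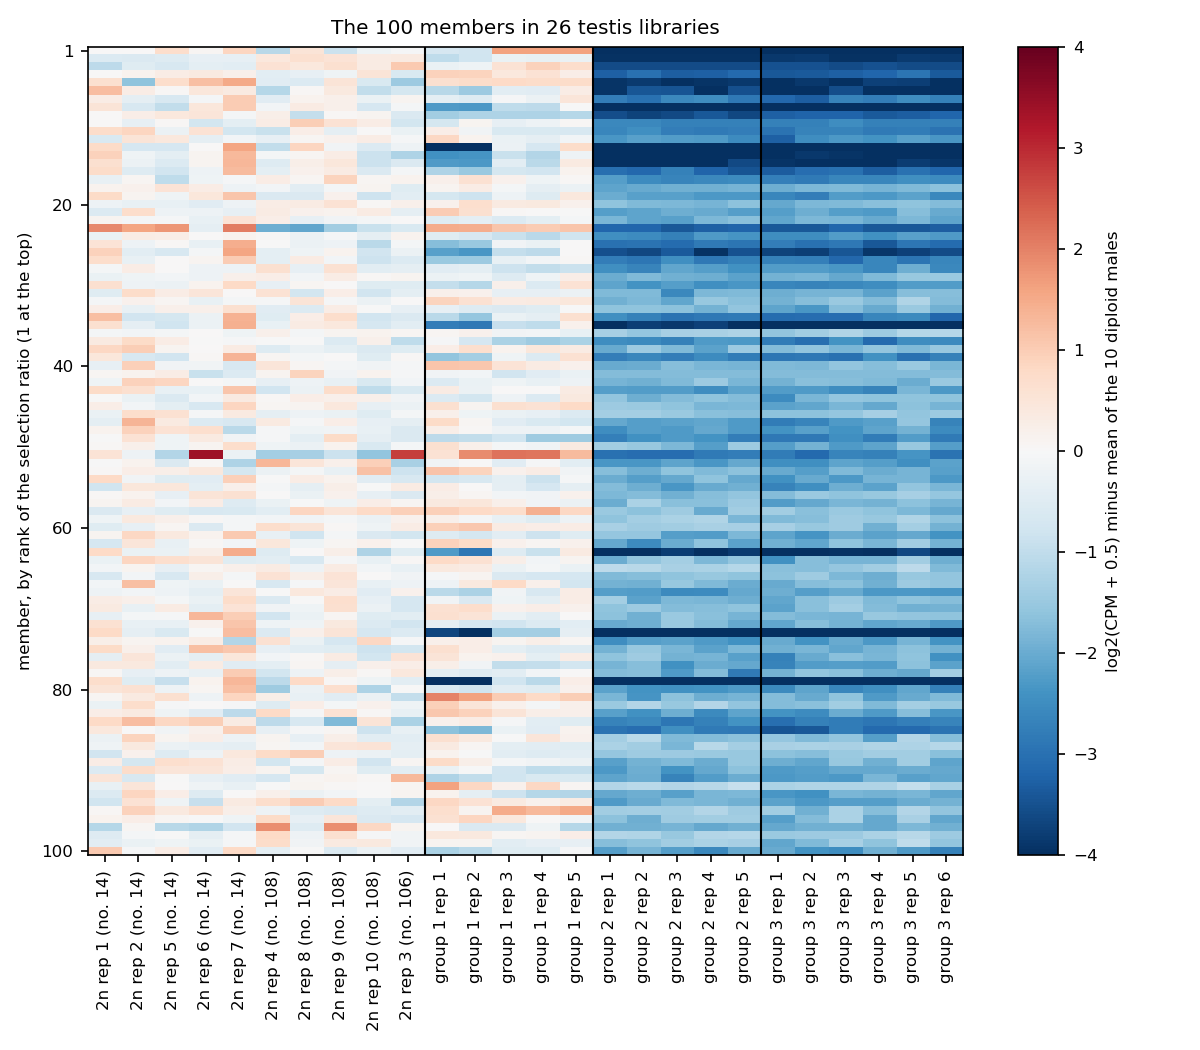
Each row is a member, in order of the selection ratio, and each column a male, grouped by 2n (with the second number of the library name), group 1, group 2 and group 3. The colour is log2(CPM + 0.5) minus the mean of the 10 diploid males, and the 11 columns of groups 2 and 3 are blue in all 100 rows. Some rows are also blue in group 1 replicates 1 and 2. Among them are the 13 members at least 2-fold lower there than in replicates 3 to 5 and below every diploid male.

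To read the pattern in males that had no part in choosing the genes, the list of 100 was chosen again without each male in turn. The male left out was then placed against all males of the opposite side. A diploid male left out lay above all 11 males of groups 2 and 3 for 97 to 100 of the 100 genes, and a group 1 male for 99 to 100. Over all nuclear genes tested, the share lying above was 32.2% to 56.5% for diploid males and 43% to 67% for group 1 males. A male of group 2 left out lay below all 15 for 100 of 100 genes in each of 5 cases, and a male of group 3 for 99 to 100. The corresponding shares of all genes were 17.5% to 23.5% and 10.3% to 33.9%. The males left out did not choose their lists, although they may be siblings of those that did. The opposite males they were set against did choose the genes, by that same extreme. These counts are therefore not independent of the choice, and the shares of all genes, not so chosen, are no like comparison.

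The member with the highest ratio was ENSCARG00000045992, a gene of 33 exons on the minus strand of chromosome 7 (16309344 to 16331644). In 2n its level ran from 17.1 to 68.2 CPM, with a median of 38.1. In group 1 it was 23.6 and 22 CPM in replicates 1 and 2 and 115 CPM in each of replicates 3 to 5. In group 2 it was 0.78, 1.12, 1.1, 0.904 and 0.934 CPM, and in group 3 it ran from 0.405 to 1.1, with a median of 0.681. The mean of the 15 males was 64.6-fold that of the 11. The 3 high males of group 1 lay above every diploid male and replicates 1 and 2 within the diploid range, and the log2 fold change of group 1 against 2n did not pass the test (0.87 ± 0.37 SE, edgeR adjusted p = 0.068).

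Next were 2 genes of 3 exons, both on chromosome 2 but not neighbours. ENSCARG00000039976 (plus strand, 64742 to 70162) had 4.65 to 11.6 CPM in 2n, with a median of 7.44, and 3.36, 3.93, 6.02, 5.83 and 6.01 CPM in group 1. It had 0 counts in all 5 males of group 2 and 4 counts in all over group 3. Those 4 counts give a ratio of 438 between the mean of the 15 males and the pooled level of the 11 (95% exact Poisson interval 171 to 1610, for counting error only). The rank 3 gene (minus strand, 1481186 to 1487305) had 2.41 to 11.9 CPM in 2n, with a median of 5.55, and 4.47, 4.86, 8.51, 11 and 9.27 CPM in group 1. It had 0 counts in group 2 and 3 in group 3, a ratio of 569 (interval 195 to 2760). Both genes were chosen by this same contrast, which the intervals do not allow for, so the ratios and intervals are a description. A count of 0 over group 2 allows up to 0.0264 CPM, and edgeR called neither gene between groups 2 and 3 (adjusted p = 1 for both).

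Only 1 member had 0 counts in all 11 males, a gene of 18 exons on chromosome 23 (13038146 to 13064908, plus strand). It was also low elsewhere, with 0.399 to 2.58 CPM in 2n (median 1.28) and 1.02, 1.06, 0.48, 0.729 and 0.904 CPM in group 1. Against the 0.0117 CPM that 3 counts over the 11 libraries would give, it was at least 96-fold higher in the 15 males. Gibel carp reads were assigned to goldfish gene models and no DNA was sequenced, so whether a low count comes with a missing or altered sequence was not tested.

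**Figure D3:**
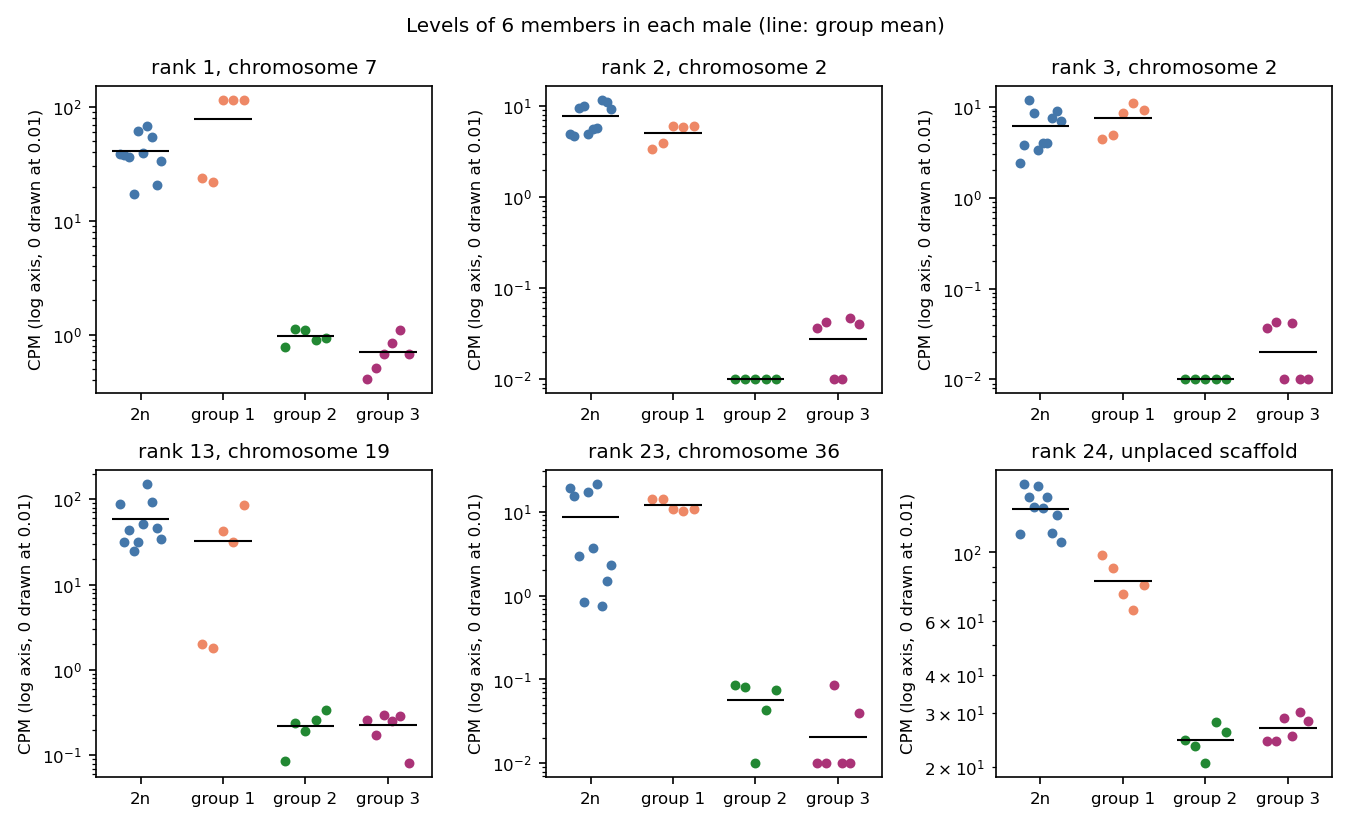
CPM of 6 members in each male on a log axis (0 drawn at 0.01), by group, with the group mean as a line. Rank 1 has 3 males of group 1 at 115 CPM, ranks 2 and 3 have 0 counts in group 2, rank 13 has group 1 replicates 1 and 2 near 2 CPM, rank 23 divides the diploid males, and rank 24 stays above 20 CPM in groups 2 and 3.

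Ranks 3 to 5, like the other members described from here on, were picked after their values were seen, apart from the genes of highest FPKM, those in runs and the largest called change of each test. The rank 4 gene (unplaced scaffold QPKE01005748.1, 313753 to 317086) had 5.25 CPM ± 1.42 (SD, n = 10) in 2n, 8.23 ± 1.71 in group 1 (n = 5), 0.117 ± 0.0563 in group 2 (n = 5) and 0.0949 ± 0.0785 in group 3 (n = 6). The rank 5 gene (chromosome 15, 14094630 to 14115006, 34 exons) was even in group 1, at 19.2, 20.7, 21.7, 20.7 and 20.8 CPM, and uneven in 2n, at 3.73 to 36.3 CPM. Its level in groups 2 and 3 lay between 0.111 and 0.464 CPM. For rank 5 the diploid males were thus the more variable of the 2 groups. For rank 4 the SD was somewhat larger in group 1, where the mean was also higher.

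Other members were lowered without being silent. Expression per exon length is given as CPM per kilobase (FPKM), which allows genes to be compared. The member with the highest FPKM in 2n lies on scaffold QPKE01002649.1 (116003 to 120095, minus strand, 5 exons) and had a mean of 108 FPKM in 2n and 63 in group 1, against 19.2 and 21 in groups 2 and 3. In CPM it ran from 108 to 167 in 2n (median 140), stood at 97.9, 88.8, 73.1, 65.1 and 78.1 in group 1 and at 24.5, 23.4, 20.6, 28.2 and 26.1 in group 2, and ran from 24.3 to 30.2 in group 3 (median 26.8). The 3 levels did not overlap: every group 1 male lay below every diploid male and above every male of groups 2 and 3. The last part was set by the choice of members. The fall of group 1 below 2n was called, with a log2 fold change of -0.99 ± 0.11 SE (edgeR adjusted p = 1.5e-07). As the rule used the lowest male of these 2 groups, that p-value is a description.

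The next by FPKM in 2n was the rank 13 gene of chromosome 19 described below, at 42.2. The next after it, on scaffold QPKE01004193.1 (168858 to 172352, 5 exons), had 33.8 FPKM in 2n and 30.1 in group 1, against 11.3 and 10.6 in groups 2 and 3. The rank 12 gene (scaffold QPKE01007222.1, 54765 to 71289) had 31.7 to 70.5 CPM in 2n, and 87.6, 53.4, 40.8, 38.2 and 45.5 CPM in group 1. It had 9.23, 10.5, 10, 9.77 and 8.22 CPM in group 2, and 4.68 to 10.5 CPM in group 3. The smallest fold of means, 2.58, belonged to rank 36 (chromosome 23, 14896895 to 14901639), with 20.3 CPM ± 1.86 (SD, n = 10) in 2n and 19.5 ± 2.44 (n = 5) in group 1, against 7.62 ± 0.603 (n = 5) and 7.86 ± 1.01 (n = 6) in groups 2 and 3. The spread within each group was small beside that fold, but the rule admits a gene of so small a fold only if its males lie close together.

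The members were spread over the genome. Of the 100, 76 lay on numbered chromosomes (77% of all nuclear genes tested did), 22 on unplaced scaffolds (21.1%) and 2 on extra linkage sequences (1.91%). They occupied 36 of the 50 numbered chromosomes, with at most 5 on any of them (chromosome 8). The median number of exons was 9 among members and 9 among all genes tested, the median exon length 2150.5 and 2123 bases, and single-exon genes made up 4% and 3.94%. In these features the members were close to the rest of the genes tested. Members overlapped another annotated gene on the same strand in 12 cases, against 6.17% of all genes, and a gene on the opposite strand in 16, against 10.4%. Overlap was taken from the first to the last base of each gene, introns included. Reads falling on exons shared by genes of the same strand were not counted for either. Whether the 12 members on the same strand, which include ranks 12 and 24, share exons was not checked, so their levels are uncertain.

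Most members stood alone, and 3 pairs lay in runs, that is with at most 3 other annotated genes between them. On chromosome 19 the single-exon gene at 6684957 to 6686423 (rank 79) and the 3-exon gene at 6701749 to 6703632 (rank 13) are neighbours on the plus strand. Rank 13 ran from 25.1 to 151 CPM in 2n (median 45.1) and stood at 2.04, 1.82, 42.9, 31.6 and 85.5 CPM in group 1. In groups 2 and 3 it lay between 0.0804 and 0.336 CPM. Rank 79 ran from 8.91 to 48.4 CPM in 2n (median 18) and stood at 0.595, 0.718, 10.6, 8.64 and 22.7 CPM in group 1, with at most 0.191 CPM in groups 2 and 3. Both genes thus had the same order of males within group 1: replicate 5 highest, replicates 3 and 4 below it, and replicates 1 and 2 lowest. Another gene of that strand close by (6676949 to 6678799), at rank 144 and so no member, had 3.9 to 56 CPM in 2n, 0.68, 0.465, 6.59, 3.45 and 10.3 CPM in group 1 and at most 0.184 CPM in groups 2 and 3.

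On chromosome 23 a 2-exon gene (7692143 to 7695262, rank 54) and a 4-exon gene (7695870 to 7696910, rank 30) are neighbours on the minus strand, 608 bases apart. Rank 54 averaged 2.56 CPM ± 1.26 (SD, n = 10) in 2n and 1.52 ± 0.464 in group 1, against 0.23 ± 0.118 and 0.166 ± 0.113 in groups 2 and 3. Rank 30 averaged 3.13 ± 1.21, 2.47 ± 1.54, 0.208 ± 0.0717 and 0.135 ± 0.0859 in the same order. Adjacent models on a strand can be parts of 1 transcript, which was not checked. On chromosome 50 the genes at 2342635 to 2357522 (rank 11, 23 exons) and 2447406 to 2450765 (rank 68, 2 exons) have 2 other genes between them. Within group 1 their highest males differed: rank 11 stood at 19, 14, 10.1, 9.98 and 9.9 CPM in replicates 1 to 5, and rank 68 at 1.45, 1.22, 3.19, 2.15 and 4.48 CPM.

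The genes around the members did not share the low level of the members as a class. Of the 278 tested genes among the nearest 2 on each side, leaving out members, 8 (2.88%) had all 11 males of groups 2 and 3 below all 15 others, and 3 (1.08%) had all 11 above. Over all nuclear genes tested these shares were 4.29% and 1.29%. The median log2 fold change of groups 2 and 3 against 2n and group 1 was -0.04 in the neighbours and -0.12 in all genes. Among the 8 were the chromosome 19 gene at 6676949 and a gene on scaffold QPKE01004854.1 (167319 to 168279) near the rank 8 member. That scaffold gene had 0 counts in all 11 males and 0.3 to 3.24 CPM in 2n. In group 1 it had 0.085, 0.169, 0.96, 0.614 and 1.22 CPM, so its place among the 8 rests on few counts in replicates 1 and 2.

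Group 1 and 2n stood on the same side of the rule, which took the lowest of their 15 males on plain CPM. That male was a diploid one for 57 members and a group 1 male for 43. A test between these groups therefore runs on values the choice used, unequally for the 2 groups. Its counts, and its p-values for single members above and below, are given as a description of the members. Group 1 was below 2n for more members than it was above: 33 of 100 fell (18.2% of all genes tested) and 5 rose (15.8% of all genes), by edgeR's quasi-likelihood test with Benjamini-Hochberg adjusted p under 0.05. The median log2 fold change was -0.45, against -0.05 over all genes. Upper quartile scaling moved the median of all genes to 0.12 and that of the members to -0.27, and gave 21 lower (10.3% of all genes) and 12 higher (22.5%). Group 1 replicates weighed on the count: 17 members were lower without replicate 2 (12.9% of all genes) and 21 without replicate 4 (15.3%), and 8 were higher without 2n replicate 7 (16.1%). Without replicates 1 and 2 together 11 were lower (8.49%), as were 11 in a fit of these 2 groups alone (8.52%). Under those last 2 settings the share of members that were lower was close to that of all genes. The median log2 fold change of the members stayed below that of all genes. It was -0.24 against -0.04 without replicates 1 and 2, and -0.41 against -0.01 in the fit of these 2 groups alone.

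The largest fall was that of a gene of 8 exons on chromosome 8 (16741941 to 16745066, rank 73). It ran from 15.4 to 59.2 CPM in 2n (median 22) and stood at 1.49, 1.1, 9.38, 9.29 and 19.1 CPM in group 1, with 0.147 to 0.486 CPM in groups 2 and 3. Replicate 5 of group 1 was the only one of its group inside the diploid range (log2 fold change -1.83 ± 0.5 SE, edgeR adjusted p = 0.0069). The rank 9 gene (scaffold QPKE01005524.1, 259330 to 260956) fell evenly, with 5.82 to 16.9 CPM in 2n and 4.21, 4.81, 4.8, 4.76 and 5.07 CPM in group 1 (-1.55 ± 0.19 SE, edgeR adjusted p = 1.3e-06). Rank 79 on chromosome 19 fell by 1.37 ± 0.49 SE (edgeR adjusted p = 0.029) and was not called without replicates 1 and 2 (-0.63, edgeR adjusted p = 0.18), nor without any of group 1 replicates 1, 2 and 4 or 2n replicate 7 alone (adjusted p from 0.051 to 0.068).

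Members that rose in group 1 were fewer. The largest rise was that of a gene of 47 exons on chromosome 35 (11223539 to 11259070, rank 81), which ran from 1.35 to 5.98 CPM in 2n (median 2.94) and stood at 13.7, 10.5, 6.72, 5.8 and 6.56 CPM in group 1. The log2 fold change was 1.14 ± 0.24 SE (edgeR adjusted p = 0.00072), and 4 of the 5 males lay above every diploid male. In groups 2 and 3 the gene lay between 0.201 and 0.678 CPM. The 4 smaller rises were those of ranks 32, 40, 92 and 95. Rank 32 (linkage sequence LG28B, 6775813 to 6780428, 9 exons) had 12.4 to 22 CPM in 2n and 28.9, 23.9, 19.2, 20 and 21 CPM in group 1 (0.34 ± 0.11 SE, edgeR adjusted p = 0.023). Rank 40 (chromosome 11, 6266237 to 6316442) had 4.36 to 14 CPM in 2n and 15.6, 15.2, 10.4, 8.83 and 7.94 CPM in group 1 (0.44 ± 0.15 SE, edgeR adjusted p = 0.028). Rank 92 (chromosome 32, 33492674 to 33494905) had 0.897 to 1.93 CPM in 2n and 4.76, 2.53, 1.44, 2.57 and 1.34 CPM in group 1 (0.77 ± 0.18 SE, edgeR adjusted p = 0.0017). The rank 95 gene (chromosome 37, 860632 to 869920) stood at 11.7, 7.81, 20.8, 18.4 and 21.6 CPM in group 1, against 4.68 to 14.1 CPM in 2n (0.96 ± 0.27 SE, edgeR adjusted p = 0.0074).

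Within group 1, replicates 1 and 2 both lay above replicates 3 to 5 for 44 members (60.5% of all nuclear genes tested) and both below for 28 (13%). On TMM-scaled CPM they lay above for 23 members (33.5%) and below for 41 (24.2%). The balance between both patterns thus depended on the scaling. Both were at least 2-fold below each of replicates 3 to 5 for 14 members, against 4.4% of all genes. On TMM-scaled CPM these were 19 members, against 6.05%. In 13 of the 14, all but rank 1, replicates 1 and 2 lay below every diploid male while replicate 5 lay inside the diploid range. How often other genes lay so against the diploid males was not counted. In these 13 genes replicate 5 was 3.3-fold to 44.3-fold above the mean of replicates 1 and 2 (median 5.71), and replicates 3 and 4 lay between in 13 of 13. Replicate 5 was also the highest in 1316 of the 1861 nuclear genes tested that were at least 2-fold lower in replicates 1 and 2 on plain CPM. That order was thus common among such genes and not particular to the members. The lower of replicates 1 and 2 was 1.7-fold to 7.82-fold above the highest male of groups 2 and 3. That it lay above was set by the choice of members, which asked this of all 15 males. The genes lie on chromosomes 8 (2 genes), 11, 13, 15, 19 (2 genes), 29 and 36 and on 4 unplaced scaffolds, so that only the chromosome 19 pair were neighbours.

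**Figure D4:**
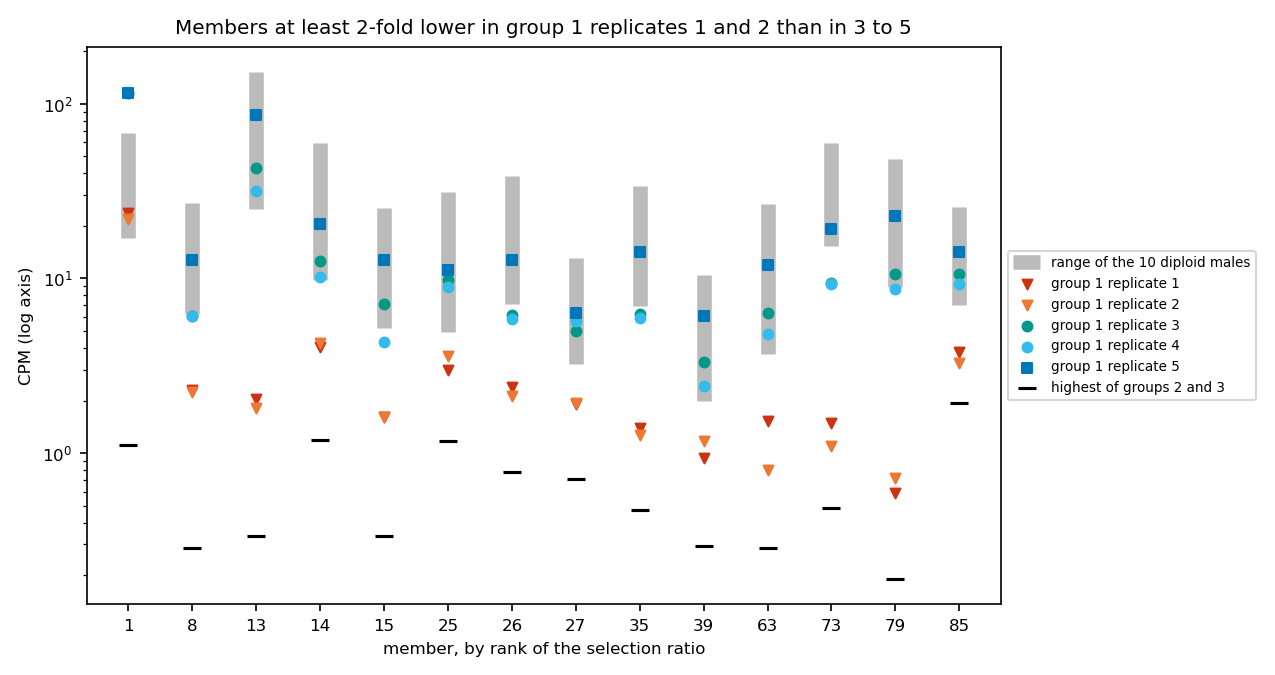
CPM on a log axis of the 14 members whose group 1 replicates 1 and 2 were at least 2-fold below replicates 3 to 5, by rank. Grey bars span the 10 diploid males, points are the 5 group 1 males, and the dash is the highest male of groups 2 and 3; outside rank 1, replicates 1 and 2 lie below the bar and replicate 5 within it.

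The same 13 genes shared their highest diploid male. Each had its highest diploid level in 2n replicate 7, a male that held the highest diploid level for 23 of the other 87 members and for 9.72% of all nuclear genes tested. How often 2n replicate 7 was highest among the other genes at least 2-fold lower in group 1 replicates 1 and 2 was not counted. The rank 63 gene (scaffold QPKE01003584.1, 714794 to 715557), for example, had 26.7 CPM in that male against 3.67 CPM in the lowest and a median of 8.49. 2n replicate 7 was also the library with the fewest counts, 15375923, and group 1 replicates 1 and 2 were those with the highest TMM factors. Replicates 1 and 2 have the temperature 31 in their names, as does replicate 3, while replicates 4 and 5 have 28. Replicates 1 and 5 share the second number 4. The part of temperature, of name number, of depth, of composition and of the makeup of the testis in this pattern was not tested.

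The second number of the library names divided the diploid males for some members. Between the 5 males of number 14 and the 4 of number 108, 8 of 100 members were higher in number 14 (7.44% of all genes tested) and 4 lower (7.48%), by edgeR's quasi-likelihood test fitted on the diploid males. These shares of adjusted calls are near those of all genes. The members still leaned toward number 14, with a median log2 fold change of 0.4 against 0.01 over all genes. That median fell to 0.22 (0.01 over all genes) without 2n replicate 7, a male of number 14. It was 0.34 to 0.46 when any other diploid male was left out. At an unadjusted p under 0.05 (edgeR), 26 members were higher (17% of all genes) and 8 lower (16.6%). The lowest of the 15 males, which the rule used, came from these males too. These counts, and the p-values of single members below, are therefore also a description. With upper quartile scaling 8 were higher (5.31% of all genes) and 8 lower (9.73%), and 3 were higher without 2n replicate 4 (3.06%) or without replicate 10 (3.16%).

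The member with the largest such difference was the rank 23 gene, of 10 exons, on chromosome 36 (19312691 to 19323031, plus strand). In males of number 14 it ran from 3.64 to 21.3 CPM, in those of number 108 from 0.756 to 2.32 CPM, and the male of number 106 had 2.93 CPM. The log2 fold change of number 14 against 108 was 3.6 ± 0.53 SE (edgeR adjusted p = 0.0029), and the levels did not overlap. Group 1 was at 14.2, 14, 10.8, 10.2 and 10.8 CPM, inside the range of number 14. The 11 males of groups 2 and 3 held 10 counts together. The diploid males of number 108 were thus between the others and groups 2 and 3 for this gene. Their place above groups 2 and 3 was set by the choice of members.

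The other 7 members higher in number 14 had log2 fold changes of 0.76 to 1.57 and lay on as many sequences. Ranks 2 and 3, the chromosome 2 genes given above, were lower in number 14. Rank 2 had 4.65 to 5.66 CPM there and 9.23 to 11.6 CPM in number 108 (-0.91 ± 0.17 SE, edgeR adjusted p = 0.0097). Rank 3 had 2.41 to 4.04 CPM and 7.06 to 8.93 CPM (-1.09 ± 0.19 SE, edgeR adjusted p = 0.0066). The groups of males did not overlap for either gene. The rank 97 gene (chromosome 42, 2787615 to 2791898, 1 exon) had 0.399 to 1.67 CPM in number 14 and 0.933 to 6.91 CPM in number 108 (-2.5 ± 0.58 SE, edgeR adjusted p = 0.02); without 2n replicate 4 it was not called (-2.19, edgeR adjusted p = 0.056). The rank 95 gene of chromosome 37 was higher in number 14, at 7.41 to 14.1 CPM against 4.68 to 6.17 (1.08 ± 0.19 SE, edgeR adjusted p = 0.0066).

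A division that did not follow these numbers was seen at rank 51 (scaffold QPKE01006986.1, 11183 to 22641, 16 exons). 2n replicate 6 (number 14) had 59.6 CPM and replicate 3 (number 106) 38.9 CPM, while the other 8 diploid males had 1.43 to 7.83 CPM. Group 1 had 8.08, 20.6, 25.3, 24.9 and 13.3 CPM, and groups 2 and 3 at most 0.62 CPM.

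**Figure D5:**
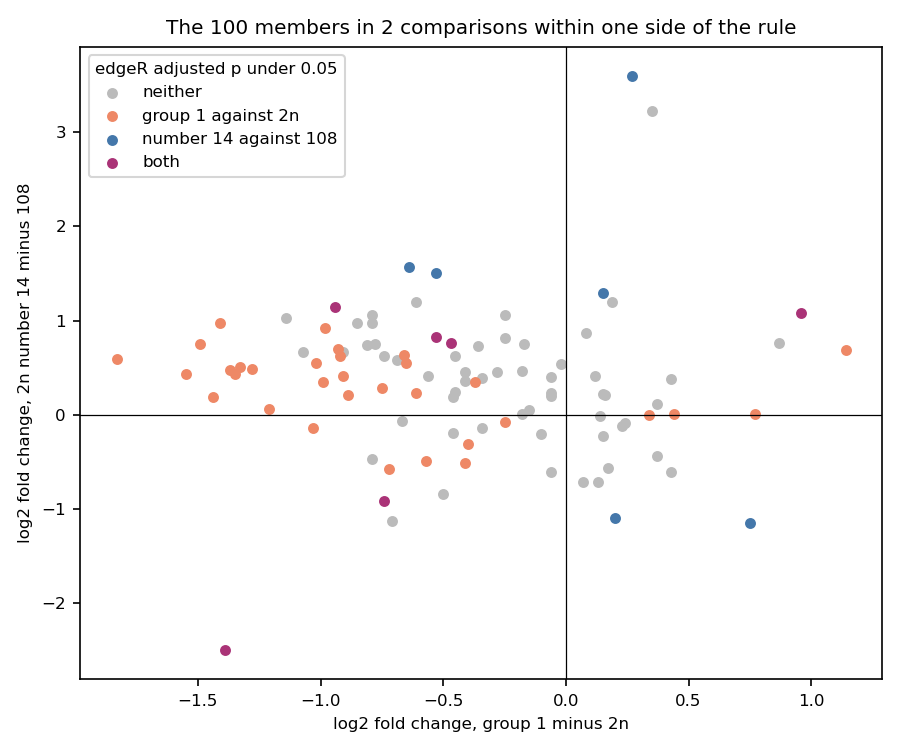
Log2 fold change of each of the 100 members for group 1 minus 2n (horizontal) and for diploid males of number 14 minus number 108 (vertical), coloured by which comparison passed edgeR's adjusted p under 0.05. Of the members, 56 passed neither test, and 3 of those lower in group 1 were also higher in number 14. The like joint counts over all genes tested were not made, so nothing is read from these 2 counts. The point at 3.6 on the vertical axis is the rank 23 gene of chromosome 36.

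Groups 2 and 3 differ in temperature and share the kind of mother. Of the 100 members, 0 differed between them (edgeR adjusted p under 0.05; 0.0% of all genes tested higher and 0.0% lower). At an unadjusted p under 0.05, 1 member was higher and 2 lower in group 3, against 1.17% and 1.36% of all genes, and DESeq2 called 0 members. The member higher in group 3 was rank 9, with 0.563, 0.441, 0.516, 0.689 and 0.486 CPM in group 2 and 0.717 to 0.885 CPM in group 3 (log2 fold change 0.6, unadjusted p = 0.049, adjusted p = 1, edgeR). The males of these 2 groups did not overlap for it. The 2 lower ones were rank 57 (scaffold QPKE01007150.1, 5776 to 6981) and rank 65 (chromosome 7, 22377123 to 22391326), with log2 fold changes of -0.44 (unadjusted p = 0.037, edgeR) and -0.36 (unadjusted p = 0.0098, edgeR) and overlapping groups. The rule took the highest male of both groups together, and a member with a high male in either group was less likely to be chosen, so this count does not show that temperature left the members alike.

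The spread between males differed by group. The median SD of log2(CPM + 0.5) over the members was 0.51 in 2n and 0.38 in group 1, against 0.17 and 0.21 in groups 2 and 3. Genes of like level that were no members had medians of 0.43, 0.39, 0.24 and 0.24. At levels near 0 the added 0.5 CPM narrows such an SD, and the choice of genes by their extremes does as well. The summed level of the members ran from 889 to 1560 CPM in 2n, 871 to 1100 in group 1, 164 to 178 in group 2 and 136 to 199 in group 3. Group 3 replicate 5 was the highest of the 11 males for 33 of the 100 members; it also had the highest TMM factor of that side, 0.9745. Among the 15 others, group 1 replicate 2 was the lowest for 14 members and 2n replicate 3 for 12, and each of the 15 was the lowest for at least 1.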

How the data were processed

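Testis RNA was enriched for poly(A), made into strand-specific libraries and sequenced as pairs of 150 bases, per the labels' protocols. STAR 2.7.3a and cutadapt 4.3 are among the tools in the submitters' processing notes. The authors deposited 1 table of raw counts per gene; per the file headers featureCounts 2.0.6 counted properly paired reads over exons of the goldfish annotation ASM336829v1-104 with strand setting 2 and no option for reads that map to several places or overlap several genes. The adapters carried molecular identifiers, but no source used here says whether they were used.

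From these counts CPM was computed on library totals. edgeR 4.0.16 (R 4.3.3) fitted 42352 genes over the 4 groups with filterByExpr (minimum count 10), TMM factors and robust quasi-likelihood tests, without a replicate block, with Benjamini-Hochberg adjustment over all genes at 0.05. A second fit used the 10 diploid males (44558 genes). Standard errors come from the fold change and its F statistic. The procedure was tested on simulated data. DESeq2 1.42.0, other scalings, no filter, an older dispersion estimate, fits on 2 groups, a replicate block and leaving out males were alternatives. Of 31 pairs of males with the same replicate number in 2 groups, 7 had deviations correlated above 0.1, so numbers were not taken as pairs. No 2 libraries of a group agreed within sampling noise.

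The members and lists were chosen with earlier results of these data known. Genes given individually were the 2 of highest ratio, the 3 of highest FPKM in 2n, those without counts in groups 2 and 3, those in runs, the largest called change of each test and the genes on either side of the list's end; others were picked after their values were seen. Marker lists of testis cells matched 0 IDs.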

Additional observations from a re-analysis of the deposited data

Results flagged for a closer look

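Dixon's test was applied to 104 groups of males. These were the 4 groups for 26 members and for the sum of the members, leaving out groups with only 0 counts. Of the 104, 8 held a male set apart from the rest by a gap above the 95% critical value. Many of these members were picked after their values were seen, and all were chosen by extremes of these same males. The usual chance rate of about 1 in 20 therefore does not apply, and the flags are a description. In 2n, the chromosome 19 gene at 6701749 had 151 CPM in replicate 7 against 25.1 to 92 in the others. The chromosome 16 gene at 18931648 had 22.2 CPM in the same male against 6.7 to 13.2. The chromosome 23 gene at 13038146 had 2.58 CPM in 2n replicate 8 against 0.399 to 1.55, and the chromosome 45 gene at 10585926 had 37.4 CPM in 2n replicate 1 against 6.85 to 21.4.

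In groups 2 and 3 the distances were small in absolute terms. The chromosome 45 gene had 0.89 CPM in group 3 replicate 3 against 0.298 to 0.477. The chromosome 15 gene at 14094630 had 0.194 CPM in group 2 replicate 3 against 0.344 to 0.401. The chromosome 37 gene at 860632 had 2.93 CPM in group 2 replicate 4 against 2.35 to 2.49. The gene on scaffold QPKE01007222.1 at 54765 had 4.68 CPM in group 3 replicate 1 against 8.4 to 10.5.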

How the results depend on the processing

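Single members were followed under the alternatives only if they were among those given Dixon's test and were called in the main fit. Of their values, 426 kept their direction and side of the threshold, 57 kept the direction and lost the call, and none reversed. The other members were not followed singly. For group 1 against 2n (33 lower, 5 higher), upper quartile scaling gave 21 and 12 (10.3% and 22.5% of all genes), the fit of those 2 groups 11 lower (8.52%), the replicate block 19 lower (15%), and the fit without group 1 replicates 1 and 2 11 lower (8.49%). Leaving out 1 male gave 17 to 42 lower (12.9% to 19.8% of all genes) and 4 to 8 higher (12.7% to 17.7%). For number 14 against 108 (8 higher, 4 lower), upper quartile scaling gave 8 lower (9.73%) and DESeq2 7 lower (9.38%). In that comparison leaving out 1 male gave 3 to 12 higher (3.06% to 10.1% of all genes). No paired analysis was possible because these males share no replicate number. Group 3 against group 2 stayed at 0 members in every setting, while over all genes DESeq2 called 1 and the 2-group fit 2. The median log2 fold of the list, 2.82 as chosen, was 3.39 with 0.1 CPM added in the rule, 2.43 with 1 CPM, 2.46 on TMM-scaled CPM, 4.77 when genes were ranked by the ratio of medians and 4.59 without group 1 replicates 1 and 2. The last 2 rules kept 29 and 59 of the 100 members. Ranking by medians also put a left-out male on its own side for as few as 62 of 100 genes, against 97. With 1 CPM added, 1 single-exon member was left of 4, and on TMM-scaled CPM 2 members in runs of 6. Where no setting is its own explanation, the cause was not tested. Genes near 0 CPM rest on few counts. Intervals cover counting error only and do not allow for the choice of the genes.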

Other observations

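A short gene of 2 exons elsewhere on chromosome 19 (25831873 to 25833394, rank 10), chosen after its values were seen, was nearly absent in groups 2 and 3 without the division of group 1 shown by the neighbouring chromosome 19 pair (ranks 13 and 79). It had 1.44 to 5.96 CPM in 2n, with a median of 2.82, and 1.49, 3, 2.09, 2.3 and 2.83 CPM in group 1, all within the diploid range. Groups 2 and 3 held 2 counts each. The ratio of the mean of the 15 males to the pooled level of the 11 was 178 (95% exact Poisson interval 69.4 to 652). The interval does not allow for the choice of the gene by this contrast.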
